A study of Homo sapiens with 6 samples.

Results

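The human histone gene cluster on chromosome 6 was described from 91 chromatin loops out of 46849 in the list, measured by Micro-C in wild-type HAP1 cells. HAP1 cells come from a chronic myeloid leukaemia and can hold a single copy of most chromosomes, but per the labels diploid cells were sorted for this study by Hoechst stain. Micro-C maps contacts between DNA regions by ligation after digestion with micrococcal nuclease, which cleaves between nucleosomes, here in cells fixed with 1% formaldehyde for 10 min and 3 mM DSG for 45 min. The 6 replicates form 1 untreated group and were pooled in 1 loop list, so that no spread between replicates, and no test between conditions, can be given. A loop is a pair of anchors of 5 or 10 kb whose contact count exceeds that of its surroundings on the contact map. Loops were taken where at least 1 anchor overlapped 26000000 to 26300000 or 27080000 to 27880000 on chromosome 6 (hg19), the first and the second histone subcluster below. An interval of 780 kb lies between them.

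Replication-dependent histone genes encode the H1 linker and the H2A, H2B, H3 and H4 core histones that package newly made DNA. Their messages end in a stem-loop in place of a poly(A) tail and are made in S phase. Transcription takes place in the histone locus body, a nuclear body that forms on these clusters around the factor NPAT. The genes occur in many near-identical copies, and the cluster on chromosome 6 is the largest in the human genome.

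The RefSeq table (GRCh38.p14) lists 55 protein-coding genes of this cluster on chromosome 6. In its order, 32 of them form the run that corresponds to the first subcluster, from H1-1 to H4C8, with 5 H1, 4 H2A, 8 H2B, 7 H3 and 8 H4 genes. The second subcluster comprises a low group of 5 genes, from H2BC11 to H2AC12, and a high group of 16 genes, from H2BC13 to H2BC17. The low group holds 2 H2A, 2 H2B and 1 H4 gene, and the high group 1 H1, 5 H2A, 4 H2B, 3 H3 and 3 H4 genes. H2AC1 and H2BC1 precede the first subcluster. Between the subclusters the table lists 84 genes without a histone gene among them, including 47 tRNA genes. It also lists 8 with butyrophilin symbols, a family of immune-related membrane proteins, counted whether protein-coding or not. Between the low and the high group it lists 77 genes, 51 of which are tRNA genes. These neighbourhoods come from GRCh38 gene order alone. The loops are in hg19, and which gene lies in which anchor was not analysed here.

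Promoter sequence is shown for 4 H2B genes, because genes of both subclusters share promoter letters that the choice of loops did not use. The sequences are the 250 bases before the gene start from RefSeq (GRCh38.p14, not comparable with the hg19 positions of the loops). Capitals mark the octamer ATTTGCAT, or ATGCAAAT where it lies on the other strand, the letters known as the binding site of POU2F1 (OCT1) in H2B promoters. H2BC3 (chr6:26043714-26043963, minus strand) is the first H2B gene of the first subcluster, H2BC11 (chr6:27132796-27133045, minus strand) that of the low group, and H2BC13 (chr6:27807930-27808179, minus strand) that of the high group. H2BC17 (chr6:27893175-27893424, plus strand) is the last gene of the high group.
H2BC3: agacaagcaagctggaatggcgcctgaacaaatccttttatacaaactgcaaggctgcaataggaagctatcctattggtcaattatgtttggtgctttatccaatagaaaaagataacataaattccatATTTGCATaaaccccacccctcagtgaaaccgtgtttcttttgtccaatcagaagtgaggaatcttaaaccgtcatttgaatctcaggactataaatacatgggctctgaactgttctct
H2BC11: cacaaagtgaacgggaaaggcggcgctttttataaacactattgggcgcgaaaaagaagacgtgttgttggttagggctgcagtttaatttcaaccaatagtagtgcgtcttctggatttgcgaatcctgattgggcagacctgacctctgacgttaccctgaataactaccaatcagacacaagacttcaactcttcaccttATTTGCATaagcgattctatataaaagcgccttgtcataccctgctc
H2BC13: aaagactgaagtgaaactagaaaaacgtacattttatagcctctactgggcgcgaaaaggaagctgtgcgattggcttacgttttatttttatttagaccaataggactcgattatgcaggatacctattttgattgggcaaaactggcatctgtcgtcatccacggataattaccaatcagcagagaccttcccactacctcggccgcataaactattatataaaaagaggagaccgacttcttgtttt
H2BC17: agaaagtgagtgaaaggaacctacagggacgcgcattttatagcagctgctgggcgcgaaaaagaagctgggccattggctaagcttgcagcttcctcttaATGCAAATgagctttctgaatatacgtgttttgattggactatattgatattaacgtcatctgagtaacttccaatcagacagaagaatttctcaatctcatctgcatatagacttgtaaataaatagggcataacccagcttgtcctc
The octamer began 120 bases before the start of H2BC3 and 47 before that of H2BC11. In H2BC17 it lay on the other strand, 149 bases before the start, and H2BC13 had 0 matches.

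Of the 55 genes, 50 had a promoter in the table. The octamer was present, on either strand, in 12 of 15 H2B and 9 of 11 H2A promoters, against 2.03% of the 27305 genes of the whole table. It was present in 1 of 8 H3, 0 of 10 H4 and 0 of 6 H1 promoters. By place, 7 of 8 H2B promoters of the first subcluster, both of the low group and 2 of 4 of the high group held it. The letters CCAAT, searched on both strands and known as a site of the factor NF-Y, were present in every one of the 6 H1, 11 H2A, 15 H2B and 8 H3 promoters and in 3 of 10 H4 promoters, against 37.0% of all genes. The letters TATAAA, on both strands, the core of the TATA box, were present in 34 of the 50 histone promoters against 13.0% of all genes. Each motif was searched on its own, whether or not its letters overlapped another. H2A and H2B genes often lie head to head: 9 pairs had overlapping promoter windows on opposite strands, so that their matches are partly the same letters. A match is a description of sequence and not a bound site.

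Of the 91 loops, 12 joined the subclusters, 14 lay within the first and 44 within the second. The remaining 21 had an anchor outside: 5 ran from the first and 7 from the second subcluster into the interval between them, 3 from the first subcluster to lower and 6 from the second to higher coordinates (below and above in what follows). Loops within a single subcluster or between both thus made up 70 of 91. No loop ran from the first subcluster past the second, and none from the second past the first.

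**Figure D1:**
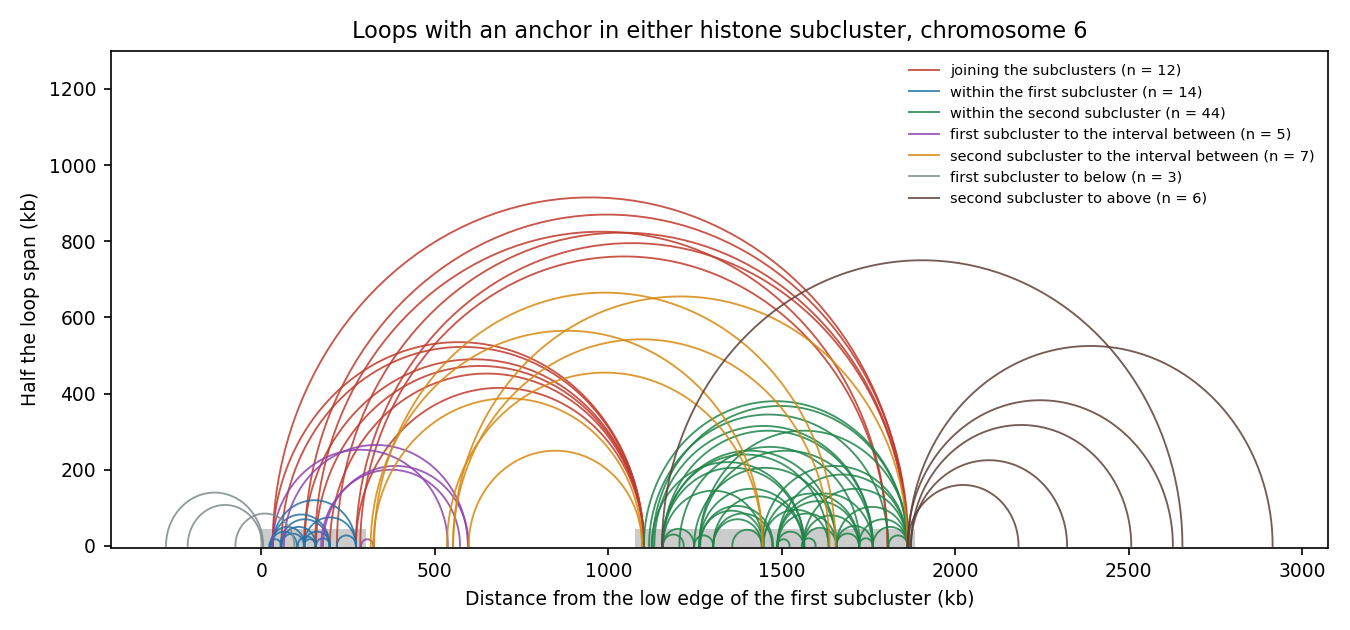
Arcs join the anchors of the 91 loops, with distance from the low edge of the first subcluster in kb on the horizontal axis and arc height proportional to loop span. Colours give the 7 classes of loop and grey blocks at the base the subclusters. The 12 joining loops converge on the low edge of the second subcluster (6 loops) and on its high part (6 loops).

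The loops had a median of 34 observed contacts (lowest 10, highest 238), against 31 (lowest 8, highest 1756) over all loops. At 34 contacts the exact 95% Poisson bounds are 23.55 and 47.5, for counting error only. In the authors' deposited table, each of the 4 q-values, against the 4 surroundings the caller uses, was at or below 0.1 for 71 of 91 loops (78.0%, exact 95% interval 68.1 to 86.0%), against 72.0% of all loops. By class of loop this held for 9 of 12 joining, 14 of 14 within the first, 37 of 44 within the second, 3 of 5 and 5 of 7 to the interval between, 1 of 3 below and 2 of 6 above. The ratio of observed contacts to those expected from the donut, the ring of pixels around the loop, was also taken. It was above the median of the list at 60 loops (65.9%, interval 55.2 to 75.5%), against 50.0% of all loops. Longer loops have higher ratios in the list, and the median span was 300 kb here, against 160 kb over all loops. Among loops of like span and anchor width (window given below), the ratio was above the median at 47 of 91. The median percentile was 50.65 (interval 39.5 to 65.45), so no excess was seen with spans matched. Single-pixel loops numbered 12 (13.2%, interval 7.004 to 21.9%), against 8.94% of all loops, and loops with 10 kb anchors 20 (22.0%, interval 14.0 to 31.9%), against 15.2%. Spans of 800 kb or more were found in 19 (20.9%, interval 13.1 to 30.7%), against 6.53% of all loops. These include all 12 joining loops, which must cross the 780 kb between the subclusters, so the share follows in part from the rule. Loops share anchors and are not independent, so these intervals are too narrow.

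Both subclusters carried many loops for their length. Loops with an anchor in the first subcluster numbered 34, or 11.3 per 100 kb, against a median of 2.33 per 100 kb (quartiles 1.00 and 3.67) over 9760 tiles of 300 kb on all chromosomes. The second had 69 loops, or 8.63 per 100 kb, against a median of 2.13 (quartiles 1.13 and 3.00) over 3656 tiles of 800 kb. The first lay at percentile 99.96 of its tiles, and none of the 3656 tiles reached the count of the second. The interval between, with 22 loops or 2.82 per 100 kb, lay at percentile 70.7 of tiles of its own length. The intervals were set with the loops of this region known, and no test was made.

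Anchors were also dense, and many of them were shared. Merged where they overlapped, they numbered 15 in the first subcluster (5.00 per 100 kb, against a tile median of 1.67) and 26 in the second (3.25, against 1.75), or percentiles 99.9 and 97.6 of the tiles. Of these 41 anchors, 29 held at least 2 loops (70.7%), against 45.9% of the 47497 anchors of the list. At least 5 loops ended at 16 of them (39.0%), against 6.71% of all anchors. Accordingly 88 of the 91 loops shared an anchor with another loop (96.7%, interval 90.7 to 99.3%), against 89.7% of all loops.

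The joining loops were counted against the possible partners. No share over pairs of anchors at like distance in the whole list is given, so theirs is not read as low or high. Of 390 pairs of an anchor in the first with an anchor in the second subcluster, 12 were listed as loops (3.08%). They ended at 8 of the 15 anchors of the first subcluster and at 3 of the 26 of the second. Those 3 were 27100001 to 27105000 with 6 loops, 27860001 to 27870000 with 4 and 27800001 to 27810000 with 2. Spans ran from 830 to 1830 kb.

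The anchor at 27100001 to 27105000, near the low edge of the second subcluster, was joined to 6 places in the first. From lower to higher coordinates, the loop from 26030001 to 26035000 had 23 observed contacts against 2.08 expected from the donut. The loop from 26055001 to 26060000 had 26 contacts, against 2.545 expected. The loop from 26120001 to 26125000 had 21, against 2.86 expected. These 3 loops to the lower part of the first subcluster had fewer contacts than the 3 loops to its higher part. The loop from 26155001 to 26160000 had 43 contacts (interval 31.1 to 57.9), against 4.555 expected. The loop from 26195001 to 26200000 had 45 (interval 32.8 to 60.2), against 4.26 expected. The loop from 26270001 to 26275000 had 36 (interval 25.2 to 49.8), against 4.19 expected. The spans of the last 3 were also shorter, 945, 905 and 830 kb against 980 to 1070 kb. The Poisson intervals of the highest count, 45, and of the lowest, 21 (interval 13.0 to 32.1), did not overlap, and those of neighbouring counts did.

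The anchor at 27860001 to 27870000, called the hub anchor below, was joined to 4 places in the first subcluster, 3 of which also had a loop to 27100001. It had 15 contacts with 26030001 to 26035000 (1.32 expected, span 1830 kb). It had 25 contacts with 26120001 to 26130000 in 10 kb bins (3.84 expected, span 1740 kb). It had 13 contacts with 26215001 to 26220000 (1.56 expected, span 1645 kb) and 23 with 26270001 to 26275000 (1.885 expected, span 1590 kb). The intervals of the 3 counts in 5 kb bins overlapped, and 26215001 to 26220000 was the place without a listed loop to 27100001.

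The remaining 2 joining loops, both with 10 kb anchors, ended at 27800001 to 27810000. They had 22 contacts with 26150001 to 26160000 (5.39 expected) and 18 with 26280001 to 26290000 (4.95 expected). Their largest q-values in the authors' deposited table were 0.143 and 0.311, and the loop from 26215001 to 27860001 had 0.123. The other 9 joining loops had each q-value at or below 0.1 in the authors' deposited table.

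The same anchors were also joined to each other. Anchors 27100001 and 27860001 formed a loop of 760 kb with 47 contacts, against 6.15 expected from the donut. Expectations from the caller's other surroundings ran from 3.71 to 12.7, and the loop was a single pixel. This loop closed a triangle, 3 anchors of which each pair was a listed loop, with each of 26030001, 26120001 and 26270001 in the first subcluster. In all, 12 triangles had 2 corners in the first and 1 in the second subcluster, and 3 had 1 and 2. A further 5 lay within the first and 25 within the second, and of the 46 triangles among the anchors 21 had the anchor at 27860001 as a corner. That anchor was chosen as the one with the most loops, and triangles over the whole list are not given, so these numbers are a description.

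The joining loops had a median ratio of observed to donut expectation, called strength below, of 9.02 (exact 95% interval of the median 6.515 to 11.1, n = 12), against 3.55 over all loops. Intervals of medians, here and below, treat loops as independent although they share anchors, and are too narrow. Long loops have high ratios throughout the list, so each was also placed among loops of 0.9 to 1.1 times its span with the same anchor width. Their median percentile was 75.7 (interval 50.0 to 80.5), with the lowest at 28.25 and the highest at 85.6. By this measure 9 of 12 lay above the median of like spans, 1 at it and the 2 loops to 27800001 below it. The contact counts had a median percentile of 77.55 (interval 51.5 to 89.35), with 9 of 12 above the median of like spans and 1 at it.

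**Figure D2:**
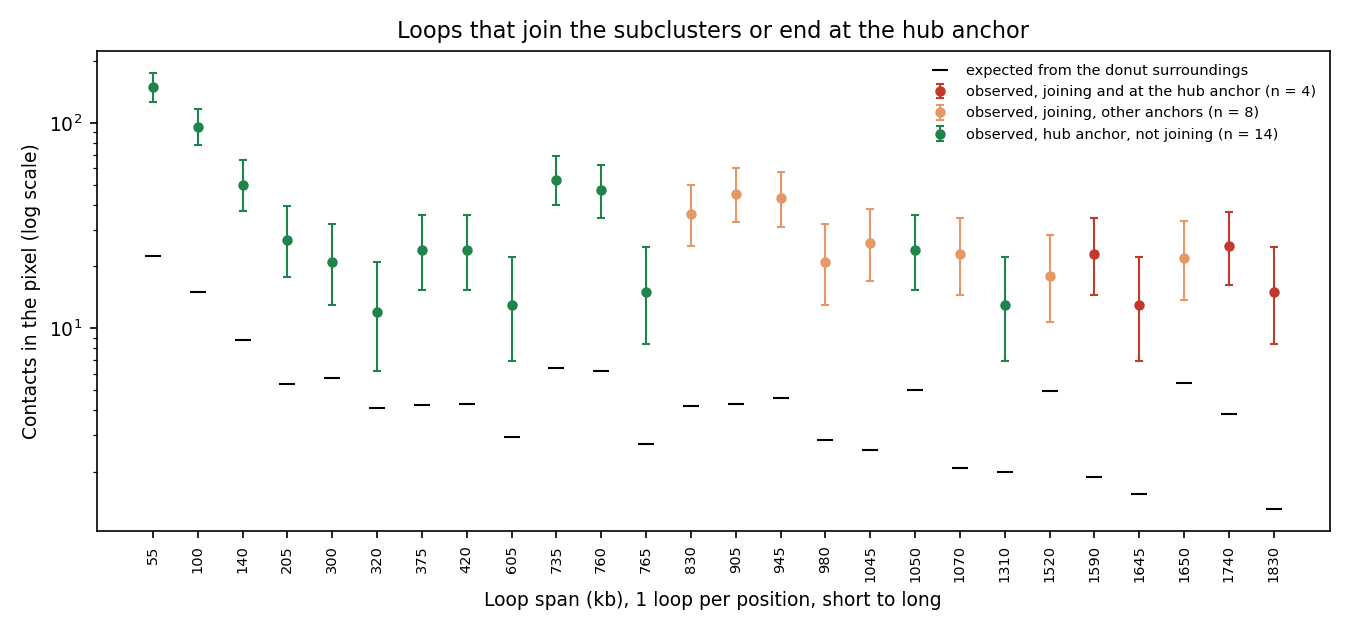
Observed contacts (points, exact Poisson 95% intervals) and donut expectations (dashes) on a log scale for the 26 loops that join the subclusters or end at the hub anchor (27860001 to 27870000), ordered by span in kb. The 4 that do both, in red, are among the longest, with 13 to 25 contacts against 1.32 to 3.84 expected.

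The surroundings of the joining loops were uneven. The vertical expectation, from the column of pixels through the loop, was above the donut expectation at all 12, by a median of 2.05 times (lowest 1.29, highest 2.77). Over the 2508 loops of the list with spans of 830 to 1830 kb the median was 1.18. The horizontal expectation had a median of 0.743 times the donut at the joining loops, against 1.17 in the same span range. The vertical exceeded the horizontal at 12 of 12 joining loops and at all 15 loops that ran from the anchor at 27860001 to lower coordinates, against 50.4% of all loops. The joining loops ended at 3 higher anchors and the 15 loops at 1, and 4 loops are in both counts, so these are not independent cases. Across the list, the vertical exceeded the horizontal in 71.9% of the 2167 loops whose higher anchor held at least 5 loops and whose lower anchor held 1. It did so in 27.3% of the 2059 loops with the reverse. Both anchors of each joining loop and of each of the 15 loops held more than 1 loop, so they belong to neither set. The cause of their uneven surroundings was not tested. Against the vertical expectation the median strength of the joining loops was 3.94, below the 4.85 of the 2508 loops in the same span range. Against the horizontal it was 11.9, above their 4.89. Whether the joining loops were strong for their span thus depended on the surroundings used. Anchor widths were not matched here.

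The anchor at 27860001 to 27870000, near the high edge of the second subcluster, held 18 loops. Of these, 10 stayed in the second subcluster, 4 reached the first, 1 ended in the interval between at 26550001 to 26555000 and 3 ran to higher coordinates. It was chosen as the anchor with the most loops, so its rank is no result. Each q-value in the authors' deposited table was at or below 0.1 for 13 of the 18, close to the 72.0% of all loops.

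Contacts of the hub anchor within the second subcluster were lower with distance up to 605 kb and higher again at the far end. The nearest partner, 27805001 to 27810000 at 55 kb, had 150 contacts (22.4 expected). The next, 27760001 to 27765000 at 100 kb, had 96 contacts (interval 77.8 to 117.2). The partner at 140 kb, 27720001 to 27725000, had 50 contacts, and that at 205 kb, 27655001 to 27660000, had 27. Each of these 4 counts was lower than the one before. The partners at 300, 375 and 420 kb had 21, 24 and 24 contacts, and that at 605 kb, whose higher anchor was 27865001 to 27870000, had 13 (interval 6.92 to 22.2). The partners at 735 kb (27125001 to 27130000) and 760 kb (27100001 to 27105000) had 53 (interval 39.7 to 69.3) and 47 (interval 34.5 to 62.5). Both were above the counts at 205 to 605 kb, and their intervals did not overlap those at 300 and 605 kb. Among counts of like span these far partners lay at percentiles 95.2 and 94.1, and the nearest, at 55 and 100 kb, as high, at 98.8 and 94.8. In between, percentiles were 69.3 at 140 kb, 41.2 at 205 kb, 34.3 at 300 kb, 52.8 at 375 kb, 55.5 at 420 kb and 15.6 at 605 kb. Donut expectations were also above the median of like span, 2.21 and 2.15 times at 735 and 760 kb and 1.52 and 1.55 times at 55 and 100 kb.

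To higher coordinates this anchor reached 28180001 to 28185000 with 12 contacts, 28625001 to 28630000 with 15 and 28910001 to 28920000 with 24 in 10 kb bins. The strengths of these 3 loops were 2.96, 5.51 and 4.78, beside a median of 6.515 for the 15 loops to lower coordinates, with spans not matched. Among like spans the 3 loops lay at percentiles 3.84, 31.9 and 81.1, and the 15 had a median percentile of 58.7 (interval 50.0 to 77.4). The adjoining anchor, 27870001 to 27875000, held 2 loops of its own, both to higher coordinates, with 12 contacts at 28320001 and 10 at 28505001. In the RefSeq order, the protein-coding genes next above the cluster are the olfactory receptors OR2B2 and OR2B6 and the zinc finger genes ZNF165 and ZSCAN16.

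**Figure D3:**
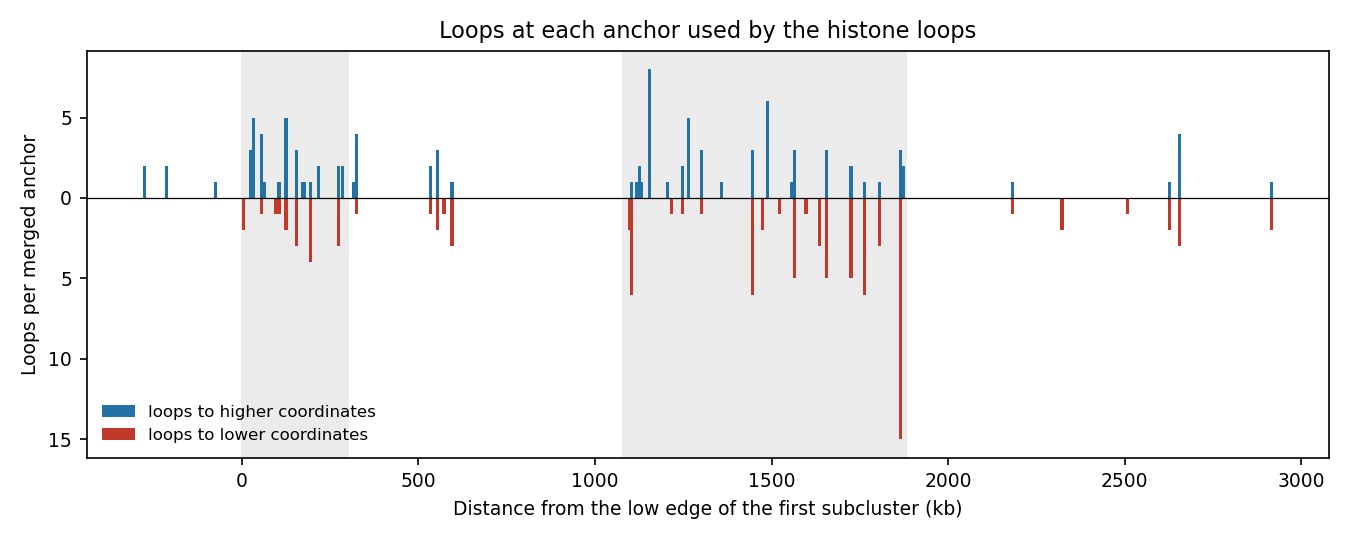
Loops per merged anchor along the region, with distance from the low edge of the first subcluster in kb, loops to higher coordinates drawn upward and loops to lower coordinates downward. Grey bands are the subclusters. The longest downward bar, 15 loops, is the anchor at 27860001 to 27870000, and the bar of 6 at the left edge of the second band is that at 27100001.

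Within the first subcluster, an interval of 300 kb that bounds their span, the loops had a median span of 75 kb (lowest 35, highest 240). Their counts were high. The strongest joined 26120001 to 26125000 with 26155001 to 26160000 over 35 kb, with 225 contacts against 27.8 expected (ratio 8.10, Poisson interval of the count 196.6 to 256.4). The loop between 26215001 to 26220000 and 26270001 to 26275000 had 238 contacts against 32.4 expected, in a cluster of 56 merged pixels. The longest, from 26030001 to 26270001, had 44 contacts against 7.11 expected. The third by count joined 26020001 to 26030000 with 26120001 to 26130000 in 10 kb bins, with 190 contacts against 68.8 expected. Of the merged anchors with at least 2 loops inside the first subcluster, those starting at 26030001, 26050001, 26120001, 26150001, 26190001 and 26270001 also had a joining loop. Those starting at 26020001 and 26100001 had none.

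All 14 loops within the first subcluster had more contacts than the median loop of like span and anchor width, at a median percentile of 90.5 (interval 67.8 to 99.1). Their donut expectations were also above that median at all 14, by a median of 1.49 times (interval 1.21 to 1.83). Strength was above it at 13 of 14, with a median percentile of 81.4 (interval 69.5 to 96.4). The exception, from 26030001 to 26195001, lay at percentile 36.7.

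Within the second subcluster the 44 loops were longer, with a median of 222.5 kb (lowest 35, highest 760), and weaker for their span. Spans inside an interval are bounded by its length, 800 kb here and 300 kb in the first, so the difference in span follows in part from the rule. Contact counts lay above the median of like span at 29 of 44 and expectations at 38 of 44, the latter by a median of 1.49 times (interval 1.38 to 1.57). Strength lay above it at 15 of 44, at a median percentile of 39.5 (interval 22.6 to 48.55). The highest strengths, with spans not matched, were those of 3 loops to the anchor at 27860001, from 27125001 (8.27), 27100001 (7.64) and 27805001 (6.70). Among like spans these 3 lay at percentiles 73.1, 65.95 and 96.7. Of loops away from that anchor, the one from 27720001 to 27760001 had the highest count, 108 contacts against 28.2 expected over 40 kb.

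For 5 kb loops under 100 kb, where both subclusters can be set side by side, the first had a median of 130 contacts (7 loops, 62 to 238) and the second 46 (11 loops, 24 to 150), beside 40 over all such loops. The expectations had medians of 27.8 in the first and 15.9 in the second, beside 14.3 in all. The ranges of the counts overlapped. At 100 to 200 kb the medians were 46 contacts in the first (3 loops) and 39.5 in the second (8 loops), beside 34 in all.

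A few other anchors of the second subcluster were much used. At 27440001 to 27450000 ended 9 loops, of which 6 ran down and 3 up in coordinate, with 18 to 65 contacts. At 27150001 to 27160000 there were 8, each to a higher coordinate, with 17 to 48 contacts, and none of its loops reached the first subcluster. The anchors at 27560001 to 27570000 and 27650001 to 27660000 also had 8 each, 5 down and 3 up. Their median strengths were 2.805 and 3.74, that at 27150001 had 2.87 and that at 27440001 had 3.39, beside 6.08 at the hub anchor and 9.44 at 27100001, with spans not matched.

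**Figure D4:**
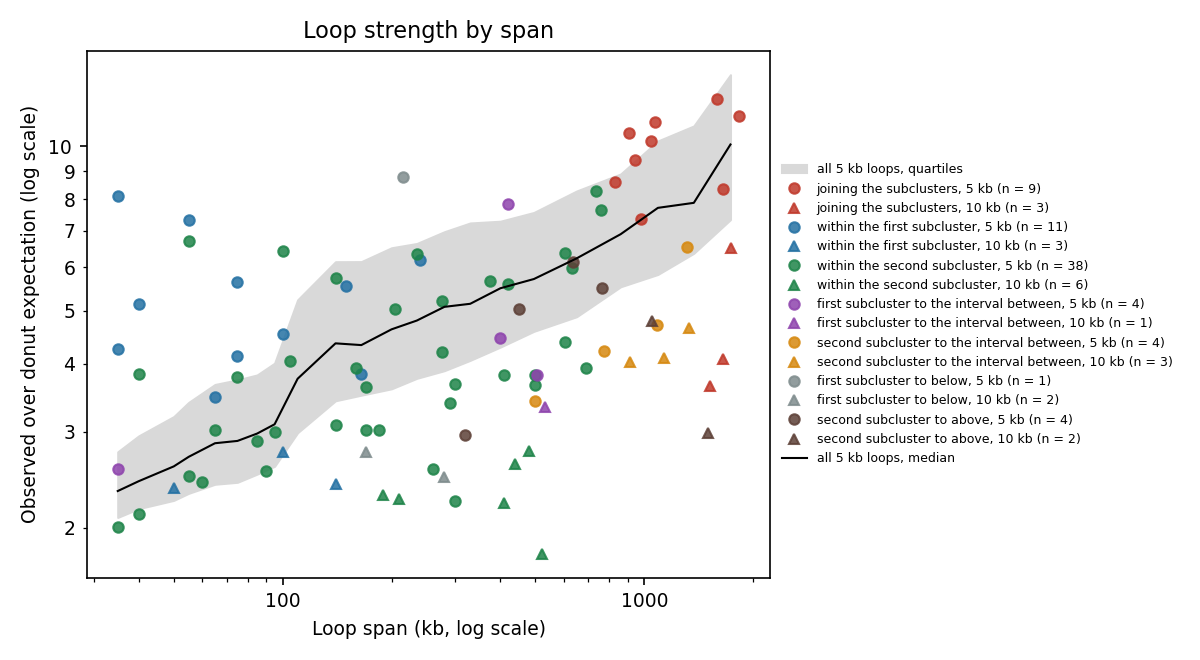
Ratio of observed to donut expectation against span in kb (both axes logarithmic) for the 91 loops, by class and anchor width, over the median (line) and quartiles (band) of all 5 kb loops. Loops within the first subcluster lie mostly above the line, those within the second mostly below it, and 10 kb loops (triangles) are mostly lower than 5 kb loops of about the same span.

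The interval between the subclusters took 12 of the loops. From the first subcluster, the shortest crossed its edge, from 26285001 to 26320001, with 71 contacts (27.7 expected), and the other 4 ended at 3 places between 26530001 and 26600000. Among these the strongest joined 26175001 with 26595001 (29 contacts, 3.70 expected). It was followed by 26170001 with 26570001 (26 contacts, 5.82 expected) and 26030001 with 26535001 (14 contacts, 3.68 expected). The longest, from 26060001 to 26590001 in 10 kb bins, had 21 contacts over 530 kb.

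From the second subcluster, the highest count was 31 contacts (9.06 expected) between 26595001 and 27095001, the longest loop 1330 kb (26320001 to 27650001, 23 contacts), and the strongest the loop of 26550001 to 27860001 (13 contacts, 1.98 expected, ratio 6.55). The loop of 26550001 with 27635001 had 11 contacts (2.34 expected) and that of 26530001 with 27440001 had 23 (5.72 expected). The anchor at 27095001 to 27100000 adjoins the one at 27100001 that holds 6 joining loops. Its own 2 loops both ended in the interval between and none in the first subcluster. Strength over these 12 loops had a median percentile of 44.05 (interval 10.4 to 71.1) among like spans.

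No anchor lay in a stretch of 375 kb of the interval between, from 26665001 to 27040000. Besides the 12 loops, 8 lay wholly in the interval and 2 ran from it past the second subcluster, with spans of 2360 and 2430 kb. No loop passed over the first subcluster. What the contact map holds in that stretch was not analysed here.

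To lower coordinates the first subcluster had 3 loops. That between 25785001 and 26000001 had 26 contacts against 2.96 expected (ratio 8.80), that between 25720001 and 26000001 had 25 against 10.1, and that between 25920001 and 26090001 had 18 against 6.54. Their expectations were 0.466, 0.784 and 0.370 times the median of like spans, all below 1, whereas all 14 loops within the subcluster were above 1. Of the 6 loops from the second subcluster to higher coordinates, the strongest ended at 28505001 (10 contacts, ratio 6.14) and the longest joined 27150001 with 28650001 (17 contacts, 1500 kb). Of these 9 outside loops, 1 had more contacts than the median loop of like span, that to 28910001.

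At the edges of the rule, the nearest anchor below the first subcluster (25990001 to 26000000) held 2 loops of 55 and 60 contacts that were not counted, and the first inside (26000001 to 26010000) 2 loops of 25 and 26. At its high edge, the last anchor inside was 26280001 to 26290000 (2 loops, 18 and 71 contacts), and the next, 26310001 to 26320000, lay in the interval between (1 loop, 18 contacts). Below the second subcluster the nearest anchor was 27040001 to 27050000, with 2 loops of 23 and 62 contacts that were not counted, and the first inside was 27095001 with 20 and 31. Above it the last inside was 27870001 with 10 and 12, and the next, 28045001 to 28050000, held 1 loop of 32 contacts.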

How the data were processed

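Per the labels, 6 Micro-C replicates of wild-type HAP1 cells form 1 group. The submitters' processing notes name BWA and hg19, and per the file headers the loop list was made with juicer_tools version 1.22.01. Caller settings and sequencing depth are not given in sources used here. In the 1 list the authors deposited, which does not tell the replicates apart, each loop has an observed count of contacts. It also has 4 expectations (donut, vertical, horizontal and lower-left surroundings), 4 q-values and the number of merged pixels.

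Loops were chosen by an anchor overlap of at least 1 bp with either interval, printed as given. Anchors are printed 1-based. The loops, gene lists and named items were chosen with earlier results of these data known. Named were all joining loops, all loops at 27860001 to 27870000, in every other class the 3 with the highest strength and with the highest count and the longest, and the 5 anchors with most loops. Other anchors are named where they share such loops.

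Counts have exact Poisson 95% intervals, for counting error only. Shares have Clopper-Pearson and medians order-statistic 95% intervals, which treat loops as independent. Because loops share anchors, the intervals of shares and medians are too narrow, and none gives the spread between replicates. No test was run. The q-values are the caller's, as deposited by the authors. Genes were matched to RefSeq (GRCh38.p14) by symbol. Functions were tested on simulated loops. Software was Python 3.11.15 with scipy 1.17.1, pandas 2.3.3, numpy 2.4.6 and matplotlib 3.10.9.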

Additional observations from a re-analysis of the deposited data

How the results depend on the processing

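Of 90 alternative values, 73 stayed within 1.5 times the count or percentile reported or within the interval of the median reported. Some of the 73 could hardly have moved. Choosing loops by anchor midpoint in place of overlap could change no count, because the anchors align with the edges of the intervals. For the tile percentiles, all near the top of the scale, a limit of 1.5 times is wide. With 10 kb loops alone there were 20 members, 9 within a subcluster, 3 joining, 4 to the interval between, 4 outside and 2 at the anchor at 27860001, and median strengths were 4.08 for joining loops, 2.41 within the first and 2.28 within the second subcluster. That setting keeps fewer loops by construction. With 5 kb loops alone 5 ran outside, and with each q-value at or below 0.1, 3 did. With the intervals narrowed by 20 kb, 7 loops joined the subclusters and 16 ran outside, since the anchors at 27860001 (4 joining loops) and 26280001 (1 joining loop) then lie outside the subclusters. The median strength of joining loops was 3.94 against the vertical and 11.9 against the horizontal expectation. It was 2.82 within the second subcluster against the vertical, and 4.74 for loops to the interval between against the lower-left expectation. The cause of these shifts was not tested. The tiles of chromosome 6 were added after seeing the data. No paired analysis was possible because the list pools the replicates, and leaving out replicates was not possible for the same reason. Counts of 10 to 30 contacts limit what single loops can show.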
